A study of Homo sapiens with 8 samples.

Results

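Peak lists of histone H3 acetylated at lysine 9 (H3K9ac) and of histone H4 acetylated at lysine 16 (H4K16ac) were set side by side in KGN cells given 1 mM butyrate for 6 h. KGN is a line grown from a human granulosa cell tumour, used here at passages 5 to 8, and granulosa cells are the hormone-producing cells around the oocyte. The pair makes up 2 of the 8 libraries of the study, whose other libraries are untreated cells with the same antibodies, nonspecific immunoglobulin (IgG) and input chromatin. Each mark was read in 1 library, so no difference between the marks was tested, and intervals below are exact (Clopper-Pearson) 95% intervals that cover counting of genes or peaks only. Both libraries come from the same line and the same treatment. The genes sorted were 19853 of 19974 RefSeq protein-coding genes on chromosomes 1 to 22 and X. A mark was counted at the start where any base of a peak lay 1 kb or less from the RefSeq start of the gene, or from its start in the authors' columns. A mark was counted inside where a peak overlapped the gene outside that window.

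Acetylation takes away the positive charge of a lysine in the histone tail and loosens its hold on DNA, and deacetylases such as HDAC1 reverse it. Butyrate is a short-chain fatty acid that blocks many of these enzymes. H3K9ac is written mainly by KAT2A and KAT2B and sits on the nucleosomes beside active promoters. H4K16ac is written mainly by KAT8 in the MSL and NSL complexes, keeps the chromatin fibre from folding tightly, and is known from promoters as well as the bodies of transcribed genes.

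The H3K9ac list was longer, and its peaks were stronger. It held 79356 peaks over 59.8 Mb with a median width of 472 bp, against 33752 peaks over 11.9 Mb and 313.5 bp for H4K16ac. The authors' fold over local background had a median of 3.44 for H3K9ac and 2.85 for H4K16ac. Recovered from fold and p, a median of 15 fragments (quartiles 13 and 21) lay over an H3K9ac summit and 10 (9 and 11) over an H4K16ac summit. The background beneath them had a median of 3.77 and 2.17 fragments, and the implied depth was 29.4 M and 23.9 M reads. All H3K9ac peaks but only 381 H4K16ac peaks (1.13%) had a q of 0.05 or less. The H4K16ac list had been limited on p (largest p 0.00499, largest q 0.621) and the H3K9ac list on q (largest p 0.00108). The butyrate IgG list held 2 peaks, which overlapped neither mark. The peak names of the H4K16ac list carry the letters k12. The labels name an H4K16ac antibody and the tables do not settle the difference, so H4K16ac here means the library so labelled.

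At gene starts H3K9ac was the rule and H4K16ac the exception. Of 19853 genes, 12675 (63.8%) had H3K9ac and 924 (4.65%) had H4K16ac at the start. Both marks were found at 711 genes (3.58%, interval 3.33 to 3.85), H3K9ac alone at 11964 (60.3%, 59.6 to 60.9) and H4K16ac alone at 213 (1.07%, 0.934 to 1.23). The other 6965 genes (35.1%) had neither. H4K16ac stood at 5.61% (5.22 to 6.02) of genes with H3K9ac and at 2.97% (2.59 to 3.39) of genes without it. Seen from the other side, 76.9% of the genes with H4K16ac also had H3K9ac. The counts with H4K16ac turn on the limit of the list. With H4K16ac peaks held to a q of 0.05, as H3K9ac peaks were, 7 genes had both marks and 2 had H4K16ac alone, and with as many H3K9ac as H4K16ac peaks, 325 genes had H4K16ac alone.

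Genes with both marks at the start were led by MRPL24, a protein of the large mitochondrial ribosomal subunit on chromosome 1. Its H4K16ac peak, chr1:156742363-156743684, covered the start with its summit 156 bp inside the gene, a fold of 4.83, a −log10 q of 2.27 and 17 fragments over a background of 2.36. Its H3K9ac peak, chr1:156740456-156741059, lay inside the gene with a fold of 4.98 and a −log10 q of 11.8, and counts through another start than the RefSeq start that H4K16ac covered. This was the strongest H4K16ac peak at any start, and the H3K9ac peak of the same gene had 33 fragments. CEP20, a centriolar protein, had H3K9ac at chr16:15887691-15888627 (fold 7.37, −log10 q 21.0) and H4K16ac just downstream at chr16:15887360-15887675 (fold 4.65, 1.65). TMEM63A, a mechanically gated ion channel, had H3K9ac at chr1:225881055-225884068 (fold 8.15, −log10 q 21.5) and H4K16ac over its downstream edge, with a summit 1209 bp inside the gene (fold 4.49, 1.65). PMVK, the phosphomevalonate kinase of cholesterol synthesis, had its H4K16ac summit 234 bp upstream (fold 4.34, −log10 q 1.42) and its strongest H3K9ac peak at another start. DGKA, a diacylglycerol kinase, had a broad H3K9ac peak of 3328 bp (fold 10.1, −log10 q 29.0) and H4K16ac at a second start (fold 4.12, 1.30). LENEP, a lens epithelial protein, and MSMP, a secreted microseminoprotein, differed from these in that their H3K9ac was weak (−log10 q 1.53 and 1.40). TMCO6, a transmembrane protein, had H4K16ac 21 bp from the start in the authors' columns (fold 4.59, −log10 q 1.75) and H3K9ac of −log10 q 12.3 upstream.

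H3K9ac alone was strongest at DNAJC21, a co-chaperone of ribosome assembly, with a peak at chr5:34929572-34931408, a fold of 9.54, a −log10 q of 39.6 and 71 fragments. ZFR, an RNA-binding zinc finger protein, followed with a fold of 8.73 and a −log10 q of 38.4, and HDAC6, the deacetylase of tubulin, with 11.5 and 38.1. YAP1, the effector of the Hippo pathway, had the widest of these peaks at 5622 bp (fold 5.18, −log10 q 36.8). CCT5, a chaperonin subunit, and its neighbour ATPSCKMT shared 1 peak of 4277 bp. UBE2G1, a ubiquitin-conjugating enzyme, and POLR2C, an RNA polymerase II subunit, completed the leading genes.

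H4K16ac alone was led by genes that include several known from few tissues. MAP1LC3C, an autophagy protein, had a peak at chr1:242001719-242002055, 467 bp upstream of its start (fold 3.79, −log10 q 1.54, 20 fragments over a background of 4). NUTM2D, at chr10:87358209-87358502, had a fold of 4.52 and a −log10 q of 1.54, but it has near-identical copies, so its reads could belong to a relative. The same holds for PSG7, a pregnancy-specific glycoprotein (fold 4.41, −log10 q 1.30). C6orf15, NINJ2, an adhesion protein of nerve and vessel, KRT9, the keratin of palms and soles, HLA-DMA, which loads peptides on MHC class II, and MYL10, a myosin light chain, had −log10 q values of 1.06 to 1.30. Only MAP1LC3C and NUTM2D passed a q of 0.05. Over all 213 genes the median −log10 q was 0.384 and the highest 1.54, and the median number of fragments was 10.

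CpG, the site of DNA methylation, was counted in promoters with a table entry, and 2 of each class are shown as examples from the leading genes above: the strongest with a table entry, then the one with a CpG ratio nearest the median of its class. The sequences are RefSeq promoters of GRCh38.p14, from 250 bases before to 50 after the start, 5′ to 3′ on the strand of the gene, with every CpG in capitals. The first 2 have both marks (chr1:154993336-154993635 and chr12:55927066-55927365, both + strand).
LENEP: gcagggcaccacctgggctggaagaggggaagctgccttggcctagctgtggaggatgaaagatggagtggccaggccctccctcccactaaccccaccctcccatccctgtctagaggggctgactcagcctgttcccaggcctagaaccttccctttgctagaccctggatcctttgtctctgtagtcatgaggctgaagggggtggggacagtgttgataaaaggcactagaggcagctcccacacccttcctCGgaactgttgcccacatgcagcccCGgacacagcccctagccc
DGKA: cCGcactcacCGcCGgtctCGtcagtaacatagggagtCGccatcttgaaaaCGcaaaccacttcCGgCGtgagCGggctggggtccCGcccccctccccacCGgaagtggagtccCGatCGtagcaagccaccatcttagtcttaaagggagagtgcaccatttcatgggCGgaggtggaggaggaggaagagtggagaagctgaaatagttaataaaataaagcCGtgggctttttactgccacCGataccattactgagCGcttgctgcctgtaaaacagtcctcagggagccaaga
The next 2 have H3K9ac alone (chr5:34929309-34929608, + strand, and chr5:32444691-32444990, − strand).
DNAJC21: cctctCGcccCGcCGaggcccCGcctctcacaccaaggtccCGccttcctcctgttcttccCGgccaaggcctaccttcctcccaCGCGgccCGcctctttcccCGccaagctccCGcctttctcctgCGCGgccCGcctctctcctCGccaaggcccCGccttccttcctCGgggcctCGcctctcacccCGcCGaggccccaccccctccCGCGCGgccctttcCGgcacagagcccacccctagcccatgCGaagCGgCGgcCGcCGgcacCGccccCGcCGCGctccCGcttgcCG
ZFR: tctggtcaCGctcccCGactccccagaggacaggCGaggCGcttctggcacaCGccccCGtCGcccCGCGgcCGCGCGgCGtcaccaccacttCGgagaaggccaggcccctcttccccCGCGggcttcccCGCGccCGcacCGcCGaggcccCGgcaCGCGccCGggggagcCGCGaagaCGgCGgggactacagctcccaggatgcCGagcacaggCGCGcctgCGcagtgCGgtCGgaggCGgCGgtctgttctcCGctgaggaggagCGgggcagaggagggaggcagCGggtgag
The last 2 have H4K16ac alone (chr10:87357494-87357793, + strand, and chr17:41572010-41572309, − strand).
NUTM2D: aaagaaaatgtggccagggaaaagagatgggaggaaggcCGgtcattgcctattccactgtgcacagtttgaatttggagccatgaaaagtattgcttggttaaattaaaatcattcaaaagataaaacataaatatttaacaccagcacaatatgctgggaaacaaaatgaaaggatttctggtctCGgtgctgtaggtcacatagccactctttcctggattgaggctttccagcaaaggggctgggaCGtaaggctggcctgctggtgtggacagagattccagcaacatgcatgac
KRT9: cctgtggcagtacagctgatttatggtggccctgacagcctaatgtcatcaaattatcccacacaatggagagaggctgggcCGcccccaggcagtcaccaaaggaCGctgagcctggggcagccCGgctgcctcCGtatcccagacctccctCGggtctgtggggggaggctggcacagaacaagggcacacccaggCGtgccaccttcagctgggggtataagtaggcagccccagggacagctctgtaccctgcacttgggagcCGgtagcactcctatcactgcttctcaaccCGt
DNAJC21 held 35 CpGs and ZFR 40, while NUTM2D held 3 and KRT9 8. LENEP and DGKA, which carry both marks, held 2 and 17.

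The ratio of observed to expected CpG had a median of 0.850 (quartiles 0.719 and 0.959) in promoters with H3K9ac alone, 0.751 (0.353 and 0.886) with both marks, 0.245 (0.174 and 0.400) with H4K16ac alone and 0.357 (0.170 and 0.703) with neither, beside 0.770 over all. GC content had medians of 65.7%, 62.7%, 55.7% and 54.0% in the same order. The GC box (GGGCGG, either strand) was found in 72.5% of promoters with H3K9ac alone and 59.8% with both. It was in 28.6% with H4K16ac alone, 33.8% with neither and 59.1% of all. The ETS core (CCGGAAG, either strand) was found in 20.2%, 19.2%, 2.38%, 3.86% and 14.7% in the same order. The TATA box (TATAAA, either strand) was found in 5.48%, 6.00%, 15.9%, 18.3% and 9.77%. For each of these motifs, the share with H4K16ac alone was closer to that with neither than to that of all promoters. This did not hold for every motif counted. The CCAAT box was in 31.0% with H4K16ac alone, 36.8% with neither and 36.7% of all. The AP-1 motif (TGANTCA) was in 3.97%, 8.46% and 5.67%. A match is only a match of letters. Entries existed for 73.2% of the genes, and for 76.7%, 70.3% and 59.2% of the 3 marked classes. Since this is under 80%, the sequence check of whole classes is void, and the values describe the promoters with an entry.

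Around starts with H3K9ac, H4K16ac summits were sparse at the start itself and frequent at its flanks. Within 500 bp of the RefSeq start of 12675 such genes, there were 854 H3K9ac summits per 1000 genes and 8.92 H4K16ac summits. At 1.5 to 2.5 kb there were 60.8 H4K16ac summits per 1000 genes upstream and 46.6 downstream, 6.03 times the density at the start. As a share of summits within 500 bp or at 1.5 to 2.5 kb, 7.66% (6.36 to 9.14) of H4K16ac summits were near the start, where an even spread would give 33.3%. For H3K9ac the share was 66.5%, but these starts were chosen for an H3K9ac peak, which builds in a high share. Over all 18926 genes with a strand, H3K9ac summits numbered 572 per 1000 near the start, 127 upstream and 178 downstream. For H4K16ac these were 8.98, 46.3 and 36.6. In the control H4K16ac list the share near starts with H3K9ac was 30.6% (29.2 to 32.1). The strongest control peaks, cut to the butyrate number, were 0.936 times as dense at the flanks as at the start. At 6251 starts without H3K9ac, H4K16ac summits numbered 9.12 per 1000 genes near the start and 16.8 and 16.2 at the flanks. The share near H3K9ac starts was 7.27% with the same limit on p in both lists and 10.0% around the authors' starts.

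**Figure D1:**
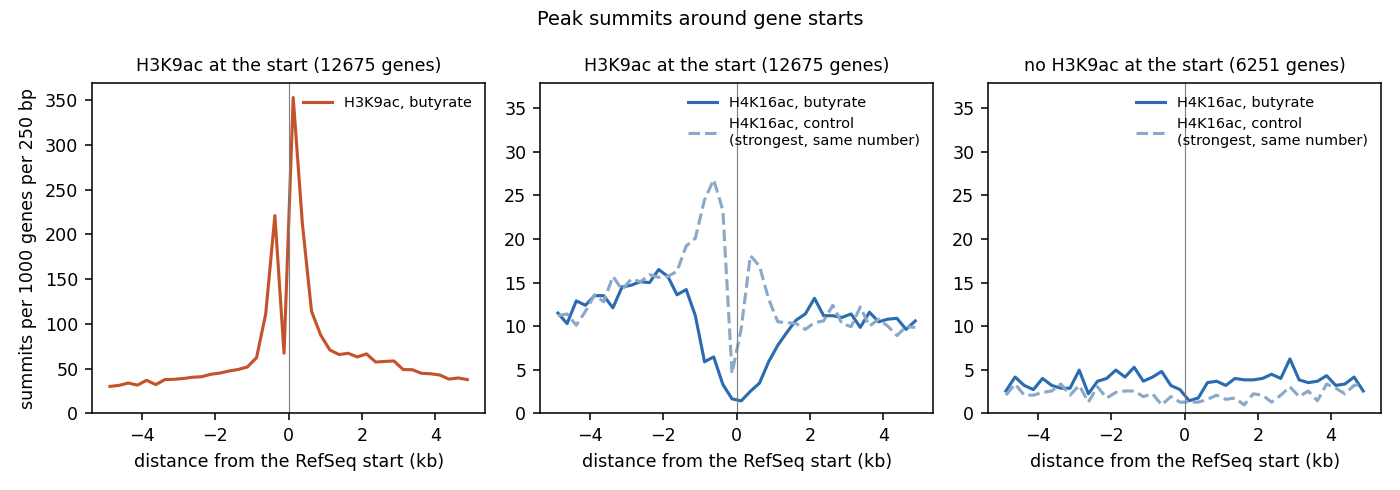
Peak summits per 1000 genes in bins of 250 bp within 5 kb of the RefSeq start, for H3K9ac (left) and H4K16ac (middle) at genes with H3K9ac at the start, and for H4K16ac at genes without it (right). Solid lines are the butyrate lists and dashed lines the strongest control H4K16ac peaks in the same number. With butyrate H4K16ac is lowest at the start. H3K9ac, at starts chosen for an H3K9ac peak, is highest within 500 bp of the start, with a dip just upstream.

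Base composition moved with these counts. The promoters with an entry were split into 3 equal groups by CpG ratio. At starts with H3K9ac, H4K16ac summits within 500 bp numbered 37.9 per 1000 genes in the group poorest in CpG, 3.14 in the middle group and 0.232 in the richest. At the flanks the same genes had 58.5, 53.2 and 53.0 summits per 1000 genes and 1 kb of flank, a far narrower range. At starts without H3K9ac, the values near the start were 10.0, 2.91 and 0.00 and at the flanks 16.1, 13.1 and 11. The part of base composition in the H4K16ac counts at starts was not tested. H4K16ac summits also lay thinner inside H3K9ac peaks at gene starts (23.8 per Mb) than in the 1 kb beside them (41.8 per Mb), whereas in H3K9ac peaks elsewhere the density was 59.8 per Mb and beside them 56.4.

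Where both marks were at the start, the H4K16ac summit lay farther out. Of the 711 genes, 627 had both within 1 kb of the same start, and at 385 (54.1%, 50.4 to 57.9) the strongest H4K16ac peak overlapped an H3K9ac peak. The H3K9ac summit lay a median of 356 bp from the nearest start and the H4K16ac summit 790 bp. Peak strength differed in the same genes: H3K9ac had a median fold of 5.51 and −log10 q of 12, H4K16ac 2.96 and 0.384. At starts with H3K9ac alone its median fold was 5.90 and its −log10 q 12.6. The nearest edge of an H4K16ac peak lay in the last 100 bp inside the window at 113 genes, and in the first 100 bp outside it at 144 genes. For H3K9ac these were 58 and 35 genes. With a window of 2.5 kb, 2600 genes had both marks, and with 0.5 kb, 271.

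More genes had H4K16ac inside than at the start, and most genes with H4K16ac inside also had H3K9ac inside. In most genes the stretch inside was longer than the start window, so shares at the start and inside are not densities. H3K9ac was found inside 12129 genes (61.1%) and H4K16ac inside 6698 (33.7%). Both marks were inside 5906 genes (29.7%, 29.1 to 30.4), H3K9ac alone inside 6223 (31.3%, 30.7 to 32.0), H4K16ac alone inside 792 (3.99%, 3.72 to 4.27) and neither inside 6932 (34.9%). Of genes with H4K16ac inside, 88.2% (87.4 to 88.9) also had H3K9ac inside. H4K16ac was inside 48.7% (47.8 to 49.6) of genes with H3K9ac inside and 10.3% (9.59 to 11) of the others. The count with H4K16ac alone rose to 1716 with equal numbers of peaks and to 1397 when peaks touching the start window were left out. At a q of 0.05 or less it was 14, and 175 genes had both.

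**Figure D2:**
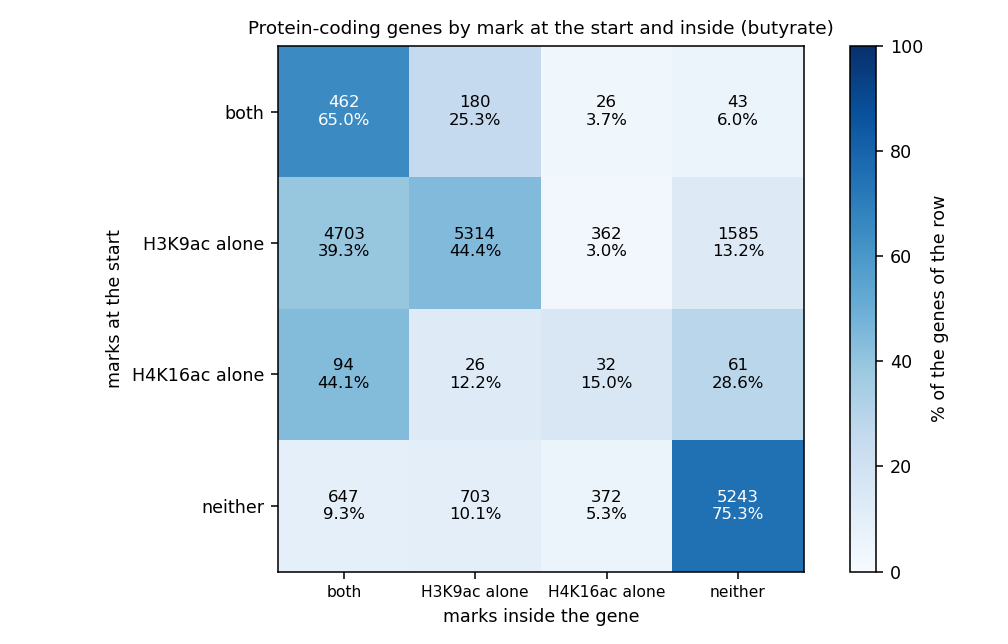
Number of protein-coding genes by mark at the start (rows) and inside the gene (columns), with the share of each row as text and colour. Of 711 genes with both marks at the start, 462 had both inside, and 5243 of the 6965 genes with neither at the start had neither inside.

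Genes marked at the start were more often marked inside, but a peak that ran from the start window into the gene counted in both places. Without peaks touching that window, 5209 genes had both marks inside, and shares by start class were not computed. H4K16ac was inside 68.6% (65.1 to 72.0) of genes with both marks at the start, 59.2% (52.2 to 65.8) of those with H4K16ac alone, 42.3% (41.4 to 43.2) of those with H3K9ac alone and 14.6% (13.8 to 15.5) of those with neither. H3K9ac was inside 90.3%, 56.3%, 83.7% and 19.4% of these groups. Of the genes with H4K16ac alone at the start, 94 had both marks inside.

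Gene length moved with the class inside. Median length was 49.1 kb for genes with both marks inside, 36.5 kb with H4K16ac alone, 18.6 kb with H3K9ac alone and 13.5 kb with neither. In 5 length groups of equal size, the share with both marks rose from 6.60% at a median of 3.13 kb to 47.8% at 152 kb. H3K9ac alone was most frequent in the second group (40.4%) and least in the longest genes (19.2%), while H4K16ac alone went from 1.74% to 5.59%. Per H4K16ac peak inside genes there were 6.06 H3K9ac peaks in the shortest group and 1.72 in the longest. Within each length group, H4K16ac was inside a larger share of genes with H3K9ac at the start than of those without: 14.1% against 3.12% in the shortest and 66.0% against 29.0% in the longest.

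**Figure D3:**
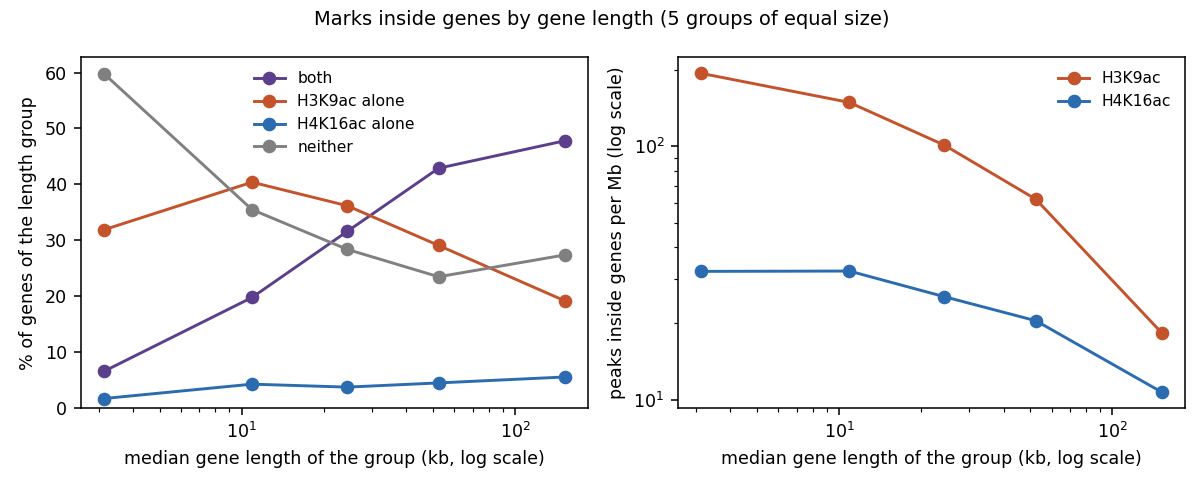
Left, share of genes with both marks, H3K9ac alone, H4K16ac alone or neither inside the gene, by median length of 5 equal groups (log axis). Right, peaks inside genes per Mb of gene on a log axis, which fall from 194 to 18.3 for H3K9ac and from 32.1 to 10.7 for H4K16ac.

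The genes with the most peaks of both marks were long. CUX1, a homeobox transcription factor of 468 kb, had 80 H3K9ac and 68 H4K16ac peaks inside. CAMTA1, a calmodulin-binding transcription activator, had 72 and 60, and RPTOR, the raptor subunit of the growth complex mTORC1, had 41 and 37. BCAR3, an adaptor of adhesion signalling, had 68 and 35. ZFHX3, a zinc finger homeobox factor of 1110 kb, had more H4K16ac (64) than H3K9ac (47) and no mark at its start. The other 4 had H3K9ac alone at the start.

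At the extremes 1 mark was missing. ALK, a receptor tyrosine kinase gene of 729 kb on chromosome 2, had 14 H4K16ac peaks inside, no H3K9ac peak inside and no mark at its start. STPG4 had 8 H4K16ac peaks and likewise no other mark, and ADGRF5, an adhesion G protein-coupled receptor, had 6 inside and H4K16ac alone at the start. PSEN2, a presenilin of the gamma-secretase, and CYB5RL had 6 H4K16ac peaks inside but H3K9ac at the start (−log10 q 18.4 and 13.9), CYB5RL with H4K16ac as well. In the opposite direction, ADARB1, an RNA-editing enzyme of 152 kb, had 34 H3K9ac peaks inside and none of H4K16ac. BASP1 had 33, PACSIN2 30, the inositol kinase ITPK1 29 and BICRA, a subunit of a SWI/SNF complex, 27. Each of these 5 also had H3K9ac alone at the start.

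Most peaks of each list overlapped none of the other. H3K9ac peaks covered 59.8 Mb of an assumed 2.7 Gb, and the overlap of randomly placed peaks was not computed. Of H4K16ac peaks, 4029 (11.9%, 11.6 to 12.3) shared at least 1 bp with an H3K9ac peak, and of H3K9ac peaks 3999 (5.04%, 4.89 to 5.19) with an H4K16ac peak. Among the 381 H4K16ac peaks with a q of 0.05 or less, 58 (15.2%, 11.8 to 19.2) overlapped. H3K9ac peaks with overlap were wider (median 595 bp against 467 bp) at a like fold (3.37 and 3.45). By the authors' annotation, 23.1% of H3K9ac peak centres lay in first introns, 29.1% in later introns and 34.7% of peaks overlapped no gene. For H4K16ac these were 13.7%, 36.9% and 43.5%. With equal numbers of peaks the overlapping share of H4K16ac was 5.57%.

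The gene classes below are 58 lists in 10 roles. They were compared by count with the shares of all genes, 63.8% for H3K9ac and 4.65% for H4K16ac at the start. H4K16ac shares were above that of all genes in 27 lists and 0 in 13, and the lists held 14 to 515 genes. The interval lay above the share of all genes for 1 list, the keratins, and below it for 2, the olfactory receptors and keratin-associated proteins. Intervals were not adjusted for the 58 lists, so a few could miss this share by counting alone. The nearest limit was 5.27% for keratins, 3.85% for keratin-associated proteins and 2.23% for olfactory receptors, beside 4.65%. The lists were also chosen with earlier results of these data known.

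**Figure D4:**
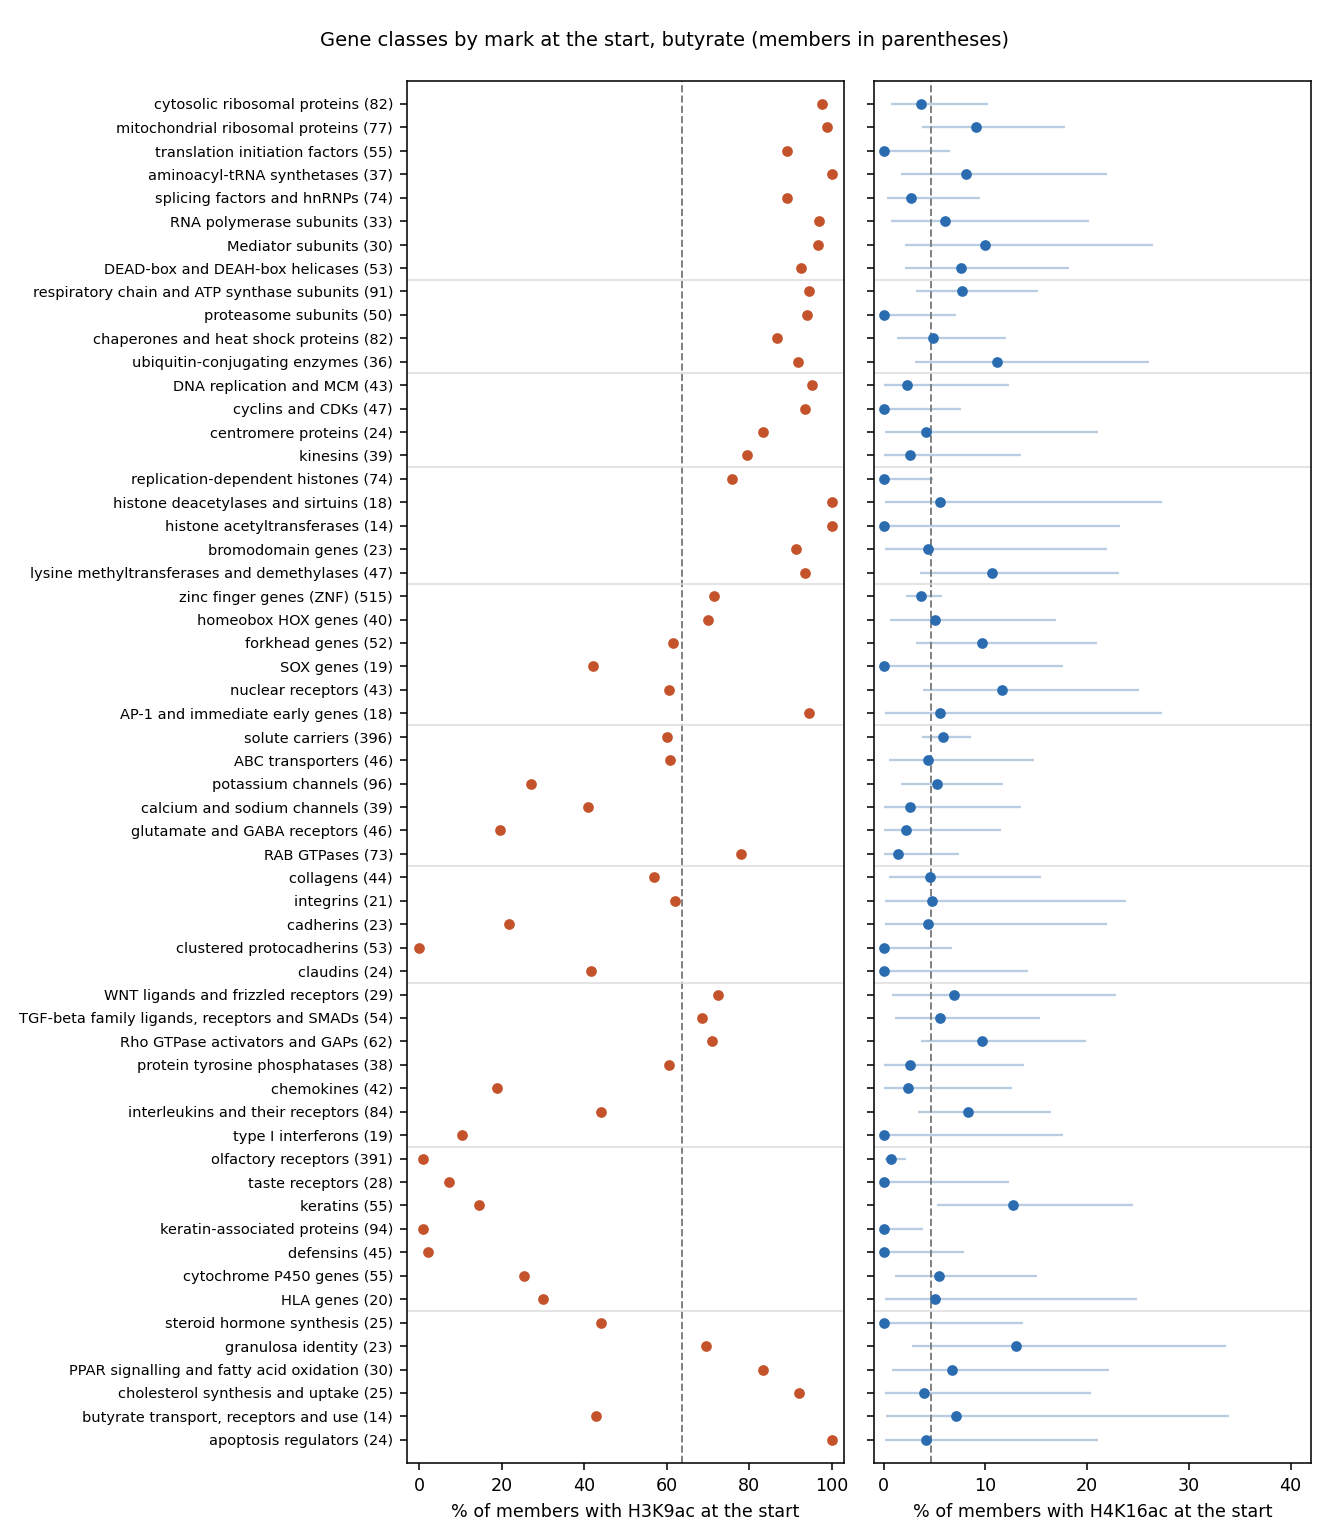
Share of members with H3K9ac (left) and H4K16ac (right, with exact 95% intervals) at the start for 58 gene lists, ordered by role and separated by grey lines, with the number of members in parentheses. The dashed lines are the shares of all genes, 63.8% and 4.65%, and H3K9ac ranges over the whole axis while H4K16ac stays at or under 13%.

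Genes of the expression machinery had H3K9ac at 94.8% of 441 starts and H4K16ac at 24 (5.44%, 3.52 to 7.99). H4K16ac alone was at 0 of them, beside 1.07% of all genes, and few of these starts lacked H3K9ac. Mitochondrial ribosomal proteins had 7 of 77 genes with both marks, among them MRPL24, MRPS14 and MRPL10, and this count was 4 with the same limit on p or a window of 0.5 kb, 22 with 2.5 kb and 1 at a q of 0.05. H3K9ac alone marked 69 of these 77 genes. None of 55 translation initiation factors had H4K16ac (upper limit 6.49%), although 49 had H3K9ac. Aminoacyl-tRNA synthetases, which charge tRNAs, all had H3K9ac, and SARS1, QARS1 and YARS1 had both.

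Energy and protein quality genes were alike, with H3K9ac at 91.5% of 259 starts and H4K16ac at 15 (5.79%, 3.28 to 9.37). Respiratory chain and ATP synthase subunits counted 6 of 91 with both marks, led by NDUFC2 and the read-through gene NDUFC2-KCTD14, which share their peaks. ATP5MC2, a subunit of the ATP synthase, had H4K16ac alone (−log10 q 0.361). UBE2Q1, UBE2C and UBE2L3 were among 4 of 36 ubiquitin-conjugating enzymes with both. No proteasome subunit of 50 had H4K16ac (upper limit 7.11%, beside 4.65% of all genes), and 47 had H3K9ac. Cell division genes had H3K9ac at 88.9% of 153 starts and H4K16ac at 3 (1.96%, 0.406 to 5.62): RFC5, a clamp loader subunit, the centromere protein CENPF and the kinesin KIF1C. Of 47 cyclins and cyclin-dependent kinases, 44 had H3K9ac and 0 had H4K16ac (upper limit 7.55%, above the share of all genes).

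Chromatin genes had H3K9ac at 86.9% of 176 starts and both marks at 7. These were HDAC1, the bromodomain gene BRD9 and 5 of 47 lysine methyltransferases and demethylases, NSD1, EZH1, KDM2B, KDM6B and KDM1A. The count of 5 was 2 with the authors' start alone, 3 with a window of 0.5 kb, 8 with 2.5 kb and 0 at a q of 0.05. HDAC1 had H3K9ac at chr1:32292168-32293581 (fold 5.98, −log10 q 14.6) and H4K16ac at chr1:32293028-32293346 (fold 3.48, −log10 q 0.534), inside the H3K9ac peak. All 18 deacetylases and sirtuins and all 14 acetyltransferases had H3K9ac. KAT8, the main writer of H4K16ac, had H3K9ac alone (fold 6.97, −log10 q 15.6). None of 74 replication-dependent histone genes had H4K16ac at the start (upper limit 4.86%, beside 4.65% of all genes), against 56 with H3K9ac.

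Transcription factor genes had H3K9ac at 69.7% of 687 starts and H4K16ac at 32 (4.66%, 3.21 to 6.51), 5 of them alone. Among 43 nuclear receptors, RARA, the retinoic acid receptor, its partner RXRB, the orphan receptor NR4A1 and PPARA, a fatty acid sensor, had both, and HNF4A, a liver and gut factor, had H4K16ac alone (11.6% with H4K16ac, 3.89 to 25.1). The count of 5 receptors with H4K16ac was 3 with the RefSeq start alone, 2 with the authors' start alone, 1 with a window of 0.5 kb, 8 with 2.5 kb and 0 at a q of 0.05. RARA had the strongest H4K16ac of these (fold 4.22, −log10 q 1.23). RXRB shared both its peaks with its neighbour SLC39A7, a zinc transporter. Among 52 forkhead genes, FOXK1, FOXN1 and FOXS1 had both, and FOXE3 and FOXL1 had H4K16ac alone with a −log10 q of 0.207, which is the weakest value among H4K16ac start peaks. The forkhead count of 5 was 2 with the same limit on p, 3 with a window of 0.5 kb, 9 with 2.5 kb and 0 at a q of 0.05. Zinc finger genes numbered 515, of which 350 had H3K9ac alone (68.0%, beside 60.3% of all genes). Both marks were at 18 of them (3.5%, near the 3.58% of all genes).

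Membrane and transport genes had H3K9ac at 53.7% of 696 starts and H4K16ac at 33 (4.74%, 3.29 to 6.59), 10 of them alone. Of 396 solute carriers, 16 had both, led by the haem transporter SLC48A1, and 7 had H4K16ac alone, led by SLC7A8 and SLC6A14, which carry amino acids, and SLC22A7, an organic anion carrier. Potassium channels had H3K9ac at 27.1% of 96 starts and H4K16ac at 5.21%. Signalling genes had H3K9ac at 52.4% of 328 starts and H4K16ac at 20 (6.10%, 3.76 to 9.26), 6 alone. Interleukins and their receptors had 7 of 84 with H4K16ac (8.33%, 3.42 to 16.4). IL17RE, IL17B, IL10RB and IL11RA had both marks, and the cytokine genes IL34, IL4 and IL27 had H4K16ac alone.

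Adhesion and matrix genes were long, with a median of 98.2 kb, and had H3K9ac less often than all genes at the start and inside. H3K9ac stood at 32.1% of 165 starts and H4K16ac at 4, COL16A1 and COL1A2 with both, the leukocyte integrin ITGB7 and the endothelial cadherin CDH5 with H4K16ac alone. H4K16ac was inside 42.4% and H3K9ac inside 41.8% of them, beside 33.7% and 61.1% of all genes, the only role of the 10 in which H4K16ac was the more frequent. Of 53 clustered protocadherins, 22 had H4K16ac inside, from the single peak chr5:141509650-141509997 that these overlapping genes share (fold 2.49, −log10 q 0.207). Without this cluster the shares were 42.9% for H4K16ac and 61.6% for H3K9ac.

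Keratins are the intermediate filament proteins of epithelia and hair. Of 55 genes, 8 had H3K9ac alone at the start (14.5%, beside 60.3% of all genes). H4K16ac alone was at 7 (12.7%, 5.27 to 24.5, beside 1.07% of all genes). Both marks were at 0 keratins, beside 3.58% of all genes with both. With so few marked keratins, having none with both is near that background. H3K9ac stood at KRT8 and KRT18, neighbours that pair in simple epithelia (−log10 q 18.6 at each), KRT7 (16), KRT80 (18.8), KRT17 (20.6), KRT16 (10.2), KRT19 (9.54) and KRT15 (4.19). H4K16ac stood at KRT9 (1.23), KRT31 (0.534), KRT14 (0.384), KRT13 and KRT86 (0.361 each), KRT33B and KRT35 (0.207 each), through 7 separate peaks on chromosomes 12 and 17. KRT31, KRT33B, KRT35 and KRT86 are hair keratins, and KRT14 belongs to the basal epidermis. Inside the gene, 11 keratins had H4K16ac alone (20.0%), 4 H3K9ac alone (7.27%) and 9 both (16.4%). Over all genes these shares were 3.99%, 31.3% and 29.7%. At a q of 0.05 or less no keratin had H4K16ac, with a window of 0.5 kb 3 had it, and with 2.5 kb 13.

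Among the other specialised families, HLA and cytochrome P450 genes had more H3K9ac starts than the keratins by share, and the rest had few. H3K9ac stood at 6 of 20 HLA genes (30.0%) and at 14 of 55 cytochrome P450 genes (25.5%), and HLA-DMA was the 1 HLA gene with H4K16ac. Of 391 olfactory receptors, 4 had H3K9ac alone and 3 had H4K16ac alone, OR10D3, OR14A16 and OR2S2, none of them at a q of 0.05. Defensins, 45 genes, and keratin-associated proteins, 94 genes, had 1 H3K9ac start each and none with H4K16ac (upper limits 7.87% and 3.85%). Of the cytochrome P450 genes, CYP1A1, which metabolises xenobiotics, and CYP27C1 had both, and CYP27B1, which activates vitamin D, had H4K16ac alone. Over the role as a whole, 688 genes, H3K9ac stood at 5.23% of starts and H4K16ac at 14 (2.03%, 1.12 to 3.39), of which 12 were alone.

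Genes of the ovary and of metabolism had H3K9ac at 76.1% of 134 starts and H4K16ac at 8 (5.97%, 2.61 to 11.4). H4K16ac alone was at 0 of 134, near the 1.07% of all genes. In the granulosa identity list, AMHR2, NR4A1 and RUNX1 had both marks, 3 of 23 genes (13%, 2.78 to 33.6). The count was 1 with the authors' start alone or a window of 0.5 kb, 6 with 2.5 kb and 0 at a q of 0.05. The strongest H3K9ac start peaks of NR4A1 and RUNX1 lay at a start inside the gene, away from the RefSeq start beside which H4K16ac lay. AMHR2, the receptor of anti-Müllerian hormone, had H3K9ac at chr12:53424585-53425210 (fold 3.62, −log10 q 4.61) and H4K16ac at chr12:53422962-53423853, 85 bp upstream of the start (fold 3.47, −log10 q 0.757). RUNX1 had H3K9ac with a −log10 q of 16.1 at an inner start and H4K16ac of 0.384 upstream, with 24 and 12 peaks inside. Of 25 steroid hormone synthesis genes, 11 had H3K9ac at the start and 0 had H4K16ac (upper limit 13.7%). CYP11A1, which makes pregnenolone from cholesterol, had a strong H3K9ac start (fold 6.95, −log10 q 18.4) and 7 peaks of each mark inside. CYP19A1, the aromatase, had no mark at the start and 1 H4K16ac peak inside. ACSS2, which makes acetyl-CoA, and ACADVL and PPARA of fatty acid oxidation had both marks, as did the survival gene BCL2L2.

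Checked against its cell type label, the line carried H3K9ac at 7 of 14 granulosa markers, FOXL2, INHA, INHBA, INHBB, AMHR2, CYP11A1 and FST. This is a lower share than the 63.8% of all genes with H3K9ac at the start, so H3K9ac starts do not set these markers apart. Neither mark stood at the starts of AMH, FSHR, CYP19A1, NR5A1, NR5A2, GATA4 and WT1. H4K16ac alone stood at the endothelial markers PECAM1 (−log10 q 0.384) and CDH5 (0.912) and at the epithelial marker KRT14. Both marks stood at AMHR2, at COL1A2 of stroma, LCK of lymphocytes and ZP3 of the oocyte. H3K9ac stood at 5 of 7 theca and stroma markers, 4 of 4 neuron markers, and 2 each of 6 endothelial, 6 blood and immune, 5 epithelial and 5 oocyte markers. Peaks show chromatin marks, not expression.

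The marks also differed by chromosome. H4K16ac was inside 9.74% of genes on chromosome 4, 12.9% on 14, 19.8% on 13 and 17.3% on X, and inside 21.4% to 47.1% on the other 19. At the start it was found at 0.260%, 0.829%, 0.592% and 1.18% of genes on these 4 chromosomes and at 10.3% on chromosome 16. H3K9ac at the start was at 51.3%, 67.0%, 58.9% and 45.0%, against 49.2% to 74.8% on the others. Inside genes H3K9ac was low on the same chromosomes too: 36.9% on 4, 48.9% on 14, 45.6% on 13 and 39.2% on X. On the others it ranged from 51.1% to 77.0%. Per H4K16ac peak there were 6.46 H3K9ac peaks on chromosome 14 and 6.26 on chromosome 19, against 2.35 over all. This ratio was 3.79 on chromosome 4, 2.22 on 13 and 2.5 on X. In the control library H4K16ac was inside 26.0%, 34.0%, 35.2% and 26.8% of genes on 4, 14, 13 and X, and 23.7% to 60.9% elsewhere. Without these 4 chromosomes, chosen after seeing the data, both marks were inside 32.4% of genes and at 4.04% of starts.

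**Figure D5:**
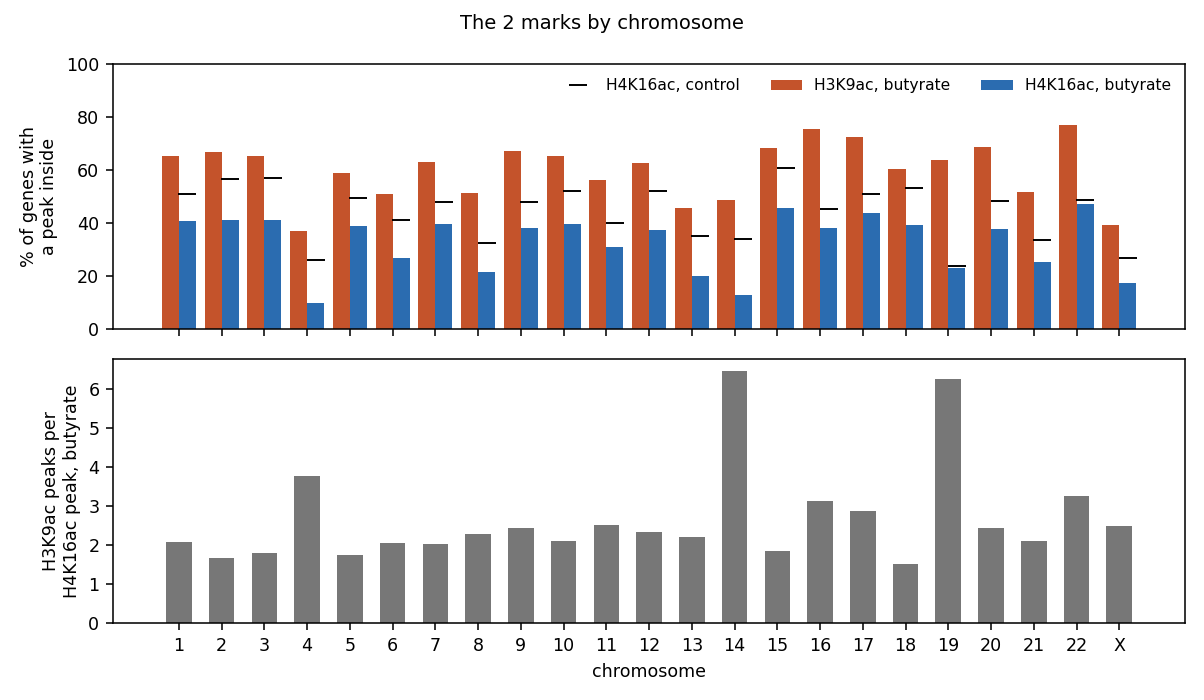
Top, share of genes with H3K9ac or H4K16ac inside by chromosome with butyrate (bars), with the control H4K16ac share as a black tick. Bottom, number of H3K9ac peaks per H4K16ac peak with butyrate, which stands at 6.46 on chromosome 14 and 6.26 on chromosome 19.

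The control libraries, sorted in the same way, are set beside these classes. The control H4K16ac list was longer than the butyrate list on every chromosome, with 9395 against 4347 peaks on chromosome 1. It was not cut to the same number here, and the part of list length in a change of class was not tested. Of the 711 genes with both marks at the start with butyrate, 298 had both in control, 225 H3K9ac alone, 63 H4K16ac alone and 125 neither. Of the 213 with H4K16ac alone, 51 had H4K16ac alone in control and 160 had neither. Of the 11964 with H3K9ac alone, 7263 had H3K9ac alone in control and 3043 had both. MRPL24, TMCO6, PMVK and DGKA carried both marks in control as well, and KRT9, PSG7, NINJ2, MYL10 and MAP1LC3C carried H4K16ac alone there too. DNAJC21, ZFR and UBE2G1 had H3K9ac alone in both conditions. The other leading genes changed class: HDAC6, YAP1, ATPSCKMT, CCT5 and POLR2C had both marks in control. LENEP and MSMP had H4K16ac alone in control, CEP20 and TMEM63A H3K9ac alone, and NUTM2D, C6orf15 and HLA-DMA neither.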

How the data were processed

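Chromatin immunoprecipitation and sequencing was done by the authors in KGN cells, and 1 MACS2 narrow peak table per library was deposited. CASAVA 1.7, MACS2 2.1.0 and the build hg19 (GRCh37) are named, per the submitters' processing notes. Not given in the sources used here were aligner, handling of duplicates and gene annotation. At 14081 genes the starts in the authors' columns and those of RefSeq GRCh38.p14 differed by a median of 65 bp, and 79.1% lay within 1 kb, so positions are printed as deposited and read as GRCh38. The deposited fold is the authors' ratio of summit pileup to local background, and the deposited p and q are −log10 values. The deposited score was not used.

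Overlapping rows of a list were merged with scripts (Python 3.11.15, pandas 2.3.3, numpy 2.4.6, scipy 1.17.1), and the strongest row gave the merged peak its values. Fragments over a summit were recovered from fold and p, with pileup in H4K16ac scaled by 0.8965. They matched for 100% of peaks within 0.001 of −log10 p. Depth assumes a genome of 2.7 Gb. Strands came from the RefSeq promoter table (15812 genes) or the authors' columns (3114). Of 1048 genes without a strand, 121 with a peak near an end were left out and 927 kept as unmarked at the start. Merging and sorting were tested on simulated peaks. The gene lists and the marked classes were chosen with earlier results of these data known. Named genes are the 8 strongest per start class, starts with a q of 0.05 or less, the 5 with most peaks inside per class, up to 3 members per list and mark (all where 5 or fewer were marked) and chosen anchors. All marked keratins and further members of small counts were named after their values were seen. With 1 library per mark no test and no p-value was computed. Alternatives concern the limit of the lists, their length, the window, the start used and the overlap.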

Additional observations from a re-analysis of the deposited data

How the results depend on the processing

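With H4K16ac peaks held to a q of 0.05, 7 genes had both marks and 2 had H4K16ac alone at the start. Inside genes, 175 had both, 11954 had H3K9ac alone and 14 had H4K16ac alone. The overlapping share was then 15.2% of H4K16ac and 0.0781% of H3K9ac peaks, 2 gene lists kept a member with H4K16ac at the start against 45, and 10.5% of H4K16ac summits lay near starts with H3K9ac. A window of 2.5 kb gave 2600 genes with both and 346 with H4K16ac alone, and 0.5 kb gave 271 with both. The authors' starts alone gave 446 genes with both and a share near the start of 10%. Equal numbers of peaks gave 325 genes with H4K16ac alone at the start and 1716 inside, and overlapping shares of 5.57% and 5.31%. Leaving out peaks that touch the start window gave 1397 genes with H4K16ac alone inside. An overlap of at least 50% of the shorter peak gave shares of 8.47% and 3.5%. Without chromosomes 4, 13, 14 and X, chosen after seeing the data, 4.04% of genes had both and 61.3% had H3K9ac alone at the start, and 32.4% had both inside. The causes were not tested. Of the values for counts and shares over all genes, 39 of 63 stayed within 1.5 times the reported count or within its interval (CpG ratios within 1 SD). For 7 single gene lists, 31 of 56 did. H4K16ac summits rest on a median of 10 fragments, which limits every count of that mark. No paired analysis was possible because each mark has 1 library and no test was made.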

Other observations

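Long noncoding RNA genes were sorted in the same way where the RefSeq promoter table gave a strand. Of 11383 such genes, 189 had both marks at the start, 3031 had H3K9ac alone and 221 had H4K16ac alone. H4K16ac alone thus stood at 1.94% of their starts, against 1.07% of protein-coding genes, but far more of their starts lacked H3K9ac. H3K9ac stood at 28.3% of their starts and H4K16ac at 3.60%, against 63.8% and 4.65% of protein-coding genes. Among starts without H3K9ac, 221 had H4K16ac and 7942 had neither mark, beside 213 and 6965 among protein-coding genes. Inside the gene, 1114 had both marks, 1675 had H3K9ac alone and 592 had H4K16ac alone. Some of these genes share a start region or sequence with a protein-coding neighbour, and the peaks carry no strand.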
